A study of Mus musculus with 12 samples.

Results

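The ribosome of the cytosol makes nearly all proteins of a cell. It consists of a large and a small subunit, each built from ribosomal RNA and a fixed set of ribosomal proteins, one copy of nearly every protein per particle. The genes of these proteins are therefore transcribed together at high levels, and the translation of their mRNAs is coupled to growth signals through mTORC1, which acts on a run of pyrimidines at the 5′ end of the mRNA (the TOP motif). Macrophages and liver cells both depend on this set, the first for growth and secretion, the second for plasma protein synthesis.

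Members were the protein-coding genes with a mouse symbol of the form Rpl, Rps or Rplp followed by a number, together with Rpsa. Pseudogenes and the Rps6k kinases were left out. This gave 84 genes among the 55357 of each table, of which 51 belong to the large and 33 to the small subunit. They were followed in 12 RNA-seq libraries, 3 in each of 4 groups. The liver groups came from WT male C57BL6/J mice aged 8 to 9 weeks, given either 2.5% Tween-80 (the vehicle) or esculetin, a coumarin made by plants, at 90 mg/kg/d by gavage over 7 days. All mice ate a control diet (10% kcal from fat) for 4 days and then a high-fat diet (60% kcal from fat) for 3 days, and each liver sample pooled a pair of mice. The cell groups were RAW264.7 cells, a macrophage line from a tumour of a BALB/c mouse, held for 24 hours with 25 µg/mL DIL-oxLDL (dye-labelled oxidized LDL) and either 40 µg/mL esculetin or DMSO.

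Total counts ran from 14659876 to 20346460 in the liver libraries and from 13752842 to 20001959 in the cell libraries. Levels are in CPM, counts scaled to the TMM-corrected library total, and differences are log2 fold changes of esculetin over control from edgeR's quasi-likelihood test, with Benjamini-Hochberg adjusted p-values over all tested genes. Genes with an adjusted p under 0.05 were called. Liver control replicate 1 stood apart, with a TMM factor of 1.11 where the other 5 liver libraries had 0.963 to 0.997, and results that rest on it are also given without it. The 7 hepatocyte markers matched summed to between 102467 and 130776 CPM in the liver and to at most 0.415 CPM in the cells, where Apoa1, Cps1, Serpina1c and Ttr were at 0. The 8 macrophage markers summed to between 2331 and 8615 CPM in the cells and to between 154 and 195 CPM in the liver.

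The start sites of members are shown because a pyrimidine run at the 5′ end of the mRNA is the feature that couples TOP mRNAs to mTORC1. RefSeq promoter sequences (GRCm38.p6) were found for 63 of the 84 members. A run of at least 8 C or T bases touching the 10 bases on either side of the annotated start was present in 29 of them, 46.0%, and in 15.8% of the 27025 genes of that table. Some runs, as in Rpl4 and Rpl13, end before the annotated start and so lie outside that mRNA. The start used in these samples was not measured. The count therefore does not say which members have TOP mRNAs. Each line gives 15 bases before and 15 bases from the start, 5′ to 3′ on the gene's strand, with the pyrimidine run in capitals.

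Rpl7a, chr2:26910792-26910821, plus strand: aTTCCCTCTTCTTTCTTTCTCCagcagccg
Rpl35, chr2:39005117-39005146, minus strand: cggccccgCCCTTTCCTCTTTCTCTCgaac
Rpl14, chr9:120571502-120571531, plus strand: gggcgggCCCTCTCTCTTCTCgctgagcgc
Rps6, chr4:86857353-86857382, minus strand: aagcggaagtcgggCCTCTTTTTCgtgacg
Rps27, chr3:90213634-90213663, minus strand: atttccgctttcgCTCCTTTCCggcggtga
Rpl22l1, chr3:28805493-28805522, plus strand: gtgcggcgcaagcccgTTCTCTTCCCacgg
Rps2, chr17:24720048-24720077, plus strand: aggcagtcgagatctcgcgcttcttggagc
Rpl5, chr5:107900513-107900542, plus strand: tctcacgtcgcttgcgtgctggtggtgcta
Rpl23, chr11:97782425-97782454, minus strand: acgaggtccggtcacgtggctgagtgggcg
Rpl7l1, chr17:46782642-46782671, minus strand: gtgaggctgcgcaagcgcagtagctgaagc

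Rpl7a, Rpl35, Rpl14, Rps6, Rps27 and Rpl22l1 carried such a run, while these windows of Rps2, Rpl5, Rpl23 and Rpl7l1 did not. In the full 300 bases of the table, searched on both strands, the ETS motif CCGGAA was found in 35 of the 63 members (55.6%, against 16.7% of all genes) and the SP1 motif GGGCGG in 39 (61.9% against 38.2%). GATGGC, the core of the YY1 motif, was in 15 (23.8% against 15.9%) and TATAAA in 7 (11.1% against 15.7%). A match is only a description of the letters.

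In the RAW264.7 cells, most members were lower with esculetin. Of 80 tested, 66 were called lower and 3 higher, beside 29.0% of all 13277 tested genes called lower and 28.7% called higher. The median log2 fold change of the members was -0.43, a level 26.0% lower, and that of all tested genes was -0.01. The 2 subunits showed similar values: 38 of 48 tested large-subunit members were called lower with a median of -0.43, and 28 of 32 small-subunit members with a median of -0.45. In 74 of the 80 members every esculetin library lay below every control library, which held for 33.1% of all tested genes. In bulk RNA, less RNA per cell and fewer cells that hold it cannot be told apart, and CPM are relative to all other RNA in the library.

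As a share of all counts, the members took 6.12%, 6.53% and 6.37% of the control cell libraries and 4.61%, 4.60% and 4.30% of the esculetin libraries. The groups did not overlap, and the share went from 6.34% ± 0.207 to 4.51% ± 0.175 (SD, n = 3), a ratio of 0.711. The large subunit went from 3.70% ± 0.108 to 2.64% ± 0.109 and the small subunit from 2.64% ± 0.0996 to 1.87% ± 0.0678. The counts of large-subunit over small-subunit members had a ratio of 1.40 ± 0.0122 in control and 1.42 ± 0.0176 in esculetin cells, and here the groups overlapped. A share is a sum over the members and was given no p-value.

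**Figure D1:**
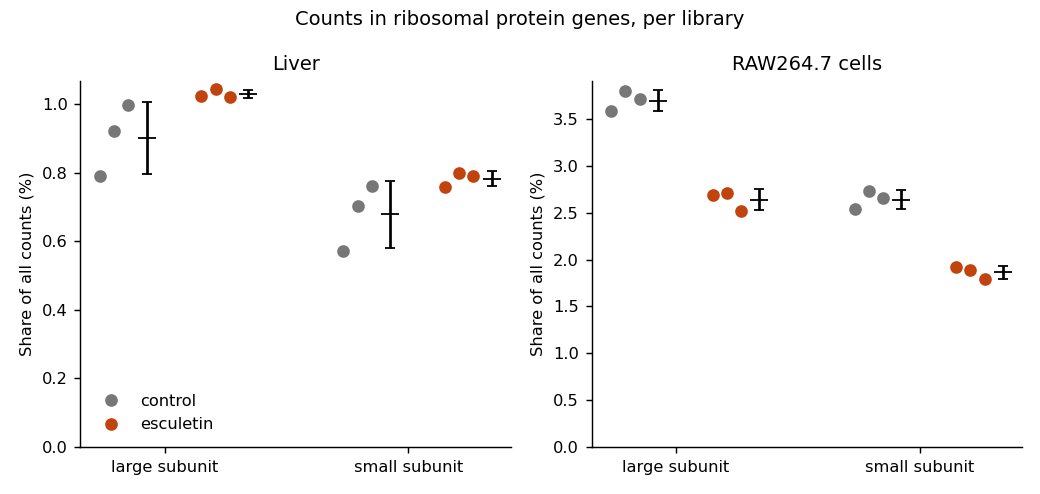
Share of all counts (%) in large-subunit and small-subunit ribosomal protein genes, 1 point per library, with the mean and SD of each group of 3 beside the points; the axes start at 0 and differ between panels. In the cells all esculetin points lie below all control points for both subunits; in the liver the esculetin points lie above the control points for the large subunit and overlap them for the small subunit.

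The largest falls in the cells were those of Rps2, Rpl3, Rpl8, Rpl36 and Rpsa. Rps2 (ENSMUSG00000044533, GRCm39 chr17:24937080-24940904), which lines the mRNA entry channel, held 198, 225 and 213 CPM in control and 103, 99.9 and 101 CPM in esculetin cells. It fell by 1.07 on the log2 scale (SE 0.08, edgeR adjusted p = 1.55e-06), with no overlap between groups. Rpl3 (ENSMUSG00000060036, chr15:79961825-79976069), a core protein next to the peptidyl transferase centre, went from 2081, 2194 and 2166 CPM to 1185, 1215 and 1017 CPM, or -0.91 on the log2 scale (SE 0.10, edgeR adjusted p = 1.62e-05). For both genes each esculetin library was near the level of the others and far below the controls.

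Rpl8 (ENSMUSG00000003970, chr15:76788271-76790514), also at the core of the large subunit, went from 1741, 1988 and 1895 CPM to 1018, 1056 and 984 CPM, or -0.88 on the log2 scale (SE 0.09, edgeR adjusted p = 1.38e-05). Rpl36 went from 247, 280.0 and 279 CPM to 158, 151 and 147 CPM and fell by 0.82 on the log2 scale (SE 0.08, edgeR adjusted p = 1.12e-05). Rpsa, which sits on the small-subunit head and is also known as the laminin receptor, went from 3207, 3737 and 3503 CPM to 2001, 2042 and 1972 CPM and fell by 0.80 (SE 0.10, edgeR adjusted p = 3.51e-05). These 5 genes, named by the size of their fold change, were called in every one of the 17 alternative fits. Of the 100-base windows of their coding sequences, 69.0% of Rps2, 89.3% of Rpl3, 69.9% of Rpl36 and 75.7% of Rpsa also occur elsewhere in the genome. For Rpl8 it was 2.08%.

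Each gene of the P stalk, which recruits elongation factors, was called lower. Rplp2 went from 412, 467 and 436 CPM to 305, 308 and 299 CPM (log2 fold change -0.53, SE 0.08, edgeR adjusted p = 0.000194). Rplp1 fell by 0.39 (SE 0.09, edgeR adjusted p = 0.00327) and Rplp0, the base of the stalk, by 0.27 (SE 0.10, edgeR adjusted p = 0.0334). The call of Rplp0 was the least firm of the stalk genes and held in 11 of the 17 alternatives. A test of the differences between the stalk genes was not run.

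Rpl5 and Rpl11, which with 5S rRNA form the particle that binds Mdm2 when ribosome assembly fails, had unlike values. Rpl11 held 600.6, 598 and 567 CPM in control and 372, 365 and 358 CPM in esculetin cells, or -0.69 on the log2 scale (SE 0.08, edgeR adjusted p = 2.03e-05). Rpl5 held 1387, 1301 and 1256 CPM in control and 1333, 1334 and 1216 CPM in esculetin cells, with overlapping groups and or -0.02 on the log2 scale (SE 0.09, edgeR adjusted p = 0.846). Every 100-base window of the coding sequences of both genes also occurs elsewhere in the genome.

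Among proteins of the peptide exit tunnel, Rpl17 fell by 0.36 (SE 0.08, edgeR adjusted p = 0.00271) and Rpl39 by 0.43 (SE 0.10, edgeR adjusted p = 0.00334). Rpl4, the member with the highest mean CPM in control cells, held 3861, 3714 and 3734 CPM there and 3379, 3381 and 3073 CPM with esculetin. Its groups did not overlap, but the difference of -0.20 (SE 0.09) missed the threshold, with an edgeR adjusted p of 0.0821. Rpl13a, the subunit released in the interferon-gamma response of myeloid cells to silence mRNAs (the GAIT complex), fell by 0.47 (SE 0.09, edgeR adjusted p = 0.00126).

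On the small subunit, Rps6, the substrate of S6 kinase, went from 1795, 1936 and 1807 CPM to 1380, 1438 and 1249 CPM, or -0.45 on the log2 scale (SE 0.09, edgeR adjusted p = 0.00182). Rps19 and Rps14, both mutated or lost in anaemias of ribosome assembly, fell by 0.51 (edgeR adjusted p = 0.00036) and 0.50 (edgeR adjusted p = 0.000642). Rps3, at the mRNA entry channel, fell by 0.39 (edgeR adjusted p = 0.00285). Rps27a, made as a fusion with ubiquitin, fell by 0.35 (edgeR adjusted p = 0.00263). In all of these genes the esculetin libraries lay below the control libraries.

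Of the 80 tested members, 11 were not called: Rpl4, Rpl5, Rpl7, Rpl21, Rpl26, Rpl30, Rpl34, Rps3a1, Rps4x, Rps20 and Rps24. Their log2 fold changes lay between -0.25 (Rpl21) and -0.02 (Rpl5), and only Rpl5, Rpl7 and Rpl21 had overlapping groups. Rps20, the not-called small-subunit gene nearest to 0, held 375, 354 and 360.0 CPM in control and 350, 326 and 335 CPM in esculetin cells, a difference of -0.11 (SE 0.08, edgeR adjusted p = 0.252). Rpl7 was at -0.10 (SE 0.09, edgeR adjusted p = 0.377).

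Against the majority, Rpl23, Rpl7l1 and Rpl3l were called higher. Rpl23 (ENSMUSG00000071415, chr11:97668352-97673324), another protein that can bind Mdm2, held 526, 492 and 473 CPM in control and 595, 615 and 553 CPM in esculetin cells. The groups did not overlap, and the log2 fold change was 0.24 (SE 0.09, edgeR adjusted p = 0.0287), a call that held in 12 of 17 alternatives. Rpl7l1 (ENSMUSG00000063888, chr17:47084824-47093606), the Rpl7-like protein of pre-ribosomes, rose from 79.1, 83.7 and 85.8 CPM to 112, 112 and 131 CPM, by 0.51 (SE 0.09, edgeR adjusted p = 0.000585). Rpl3l, the paralog of striated muscle, was at 5, 7 and 2 counts in control and 10, 15 and 16 counts in esculetin libraries (log2 fold change 1.85, SE 0.53, edgeR adjusted p = 0.0105), and without control replicate 3 its adjusted p was 0.0532.

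**Figure D2:**
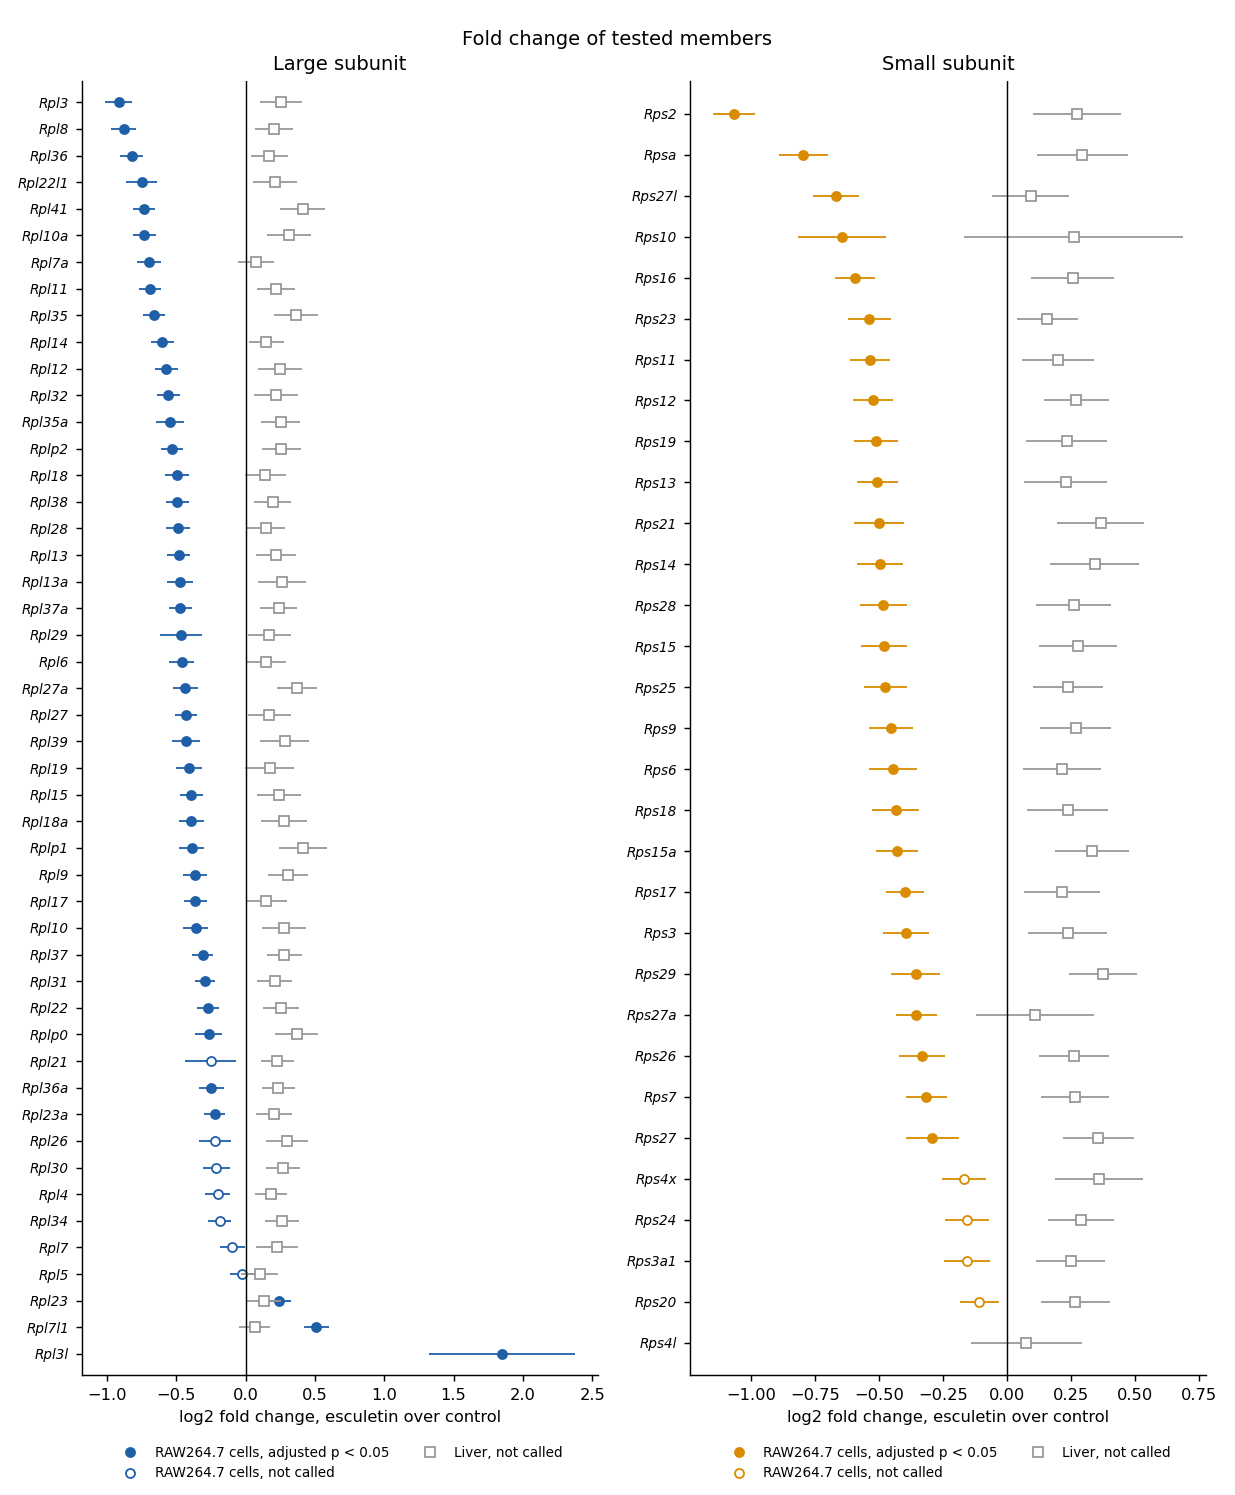
Log2 fold change of esculetin over control (x axis, bars 1 SE) for members tested in either table, large subunit left and small subunit right, ordered by the value in the cells. Circles are RAW264.7 cells, filled at an edgeR adjusted p under 0.05; open squares are the liver, where no member was called. In the cells 75 of the 78 members plotted lie below 0, and in the liver all 78 lie above 0.

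Several genes in the tables have paralogs that replace them in some cells, and the share of a paralog in the counts of its pair is independent of library scaling. Rpl22l1 made up 13.3%, 11.7% and 12.7% of the Rpl22 pair in control and 10.1%, 8.29% and 9.63% in esculetin cells, without overlap. Rpl22l1 fell by 0.75 (SE 0.11, edgeR adjusted p = 0.000171) and Rpl22 by 0.27 (SE 0.08, edgeR adjusted p = 0.0134). Rps27l, a p53-responsive paralog of Rps27, made up 42.3% ± 0.466 of its pair in control and 36.2% ± 1.96 in esculetin cells (SD, n = 3). It went from 150, 171 and 145 CPM to 102, 93.7 and 96.8 CPM, or -0.67 on the log2 scale (SE 0.09, edgeR adjusted p = 7.55e-05), whereas that of Rps27 was -0.29 (SE 0.10, edgeR adjusted p = 0.031).

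The Rpl7l1 share of its pair went the other way, from 5.38%, 6.43% and 6.29% to 8.37%, 8.29% and 9.99%. Shares were not tested. Rpl39l and Rpl10l, the testis paralogs of Rpl39 and Rpl10, and Rps4l, the paralog of Rps4x, had 0 counts in all 6 cell libraries, which allows up to 3 counts in each, for counting error only. Rpl39 and Rpl10 themselves fell by 0.43 and 0.36, and Rps4x was at -0.17 (edgeR adjusted p = 0.111). In the liver Rpl10l had 0 counts, Rpl39l 2 counts in 1 library, Rpl3l at most 3 and Rpl24 at most 6 in any library, and these 4 genes were not tested.

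**Figure D3:**
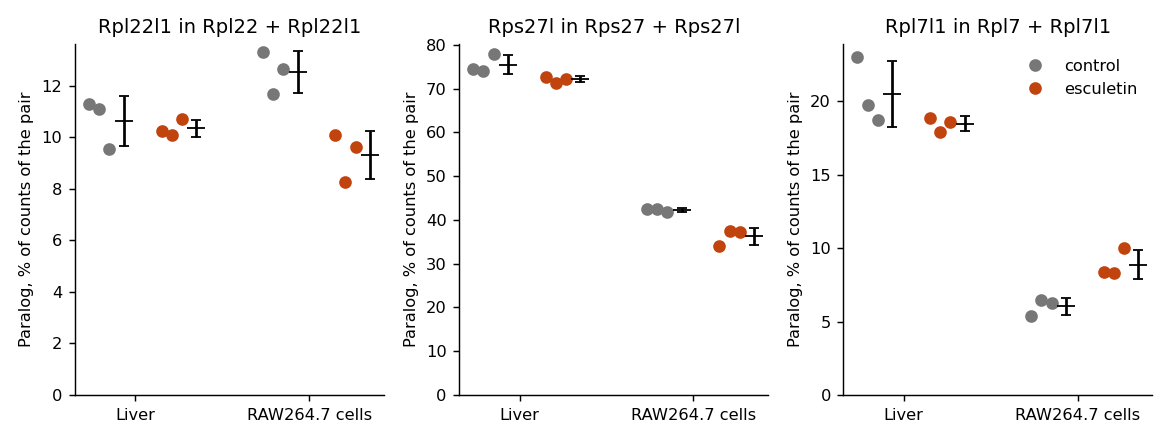
Paralog counts as a percentage of the counts of the pair, 1 point per library, with group mean and SD (n = 3) beside the points and axes from 0. In the cells the esculetin points lie below the control points for Rpl22l1 and Rps27l and above them for Rpl7l1; Rps27l takes over 71% of its pair in every liver library and under 43% in every cell library.

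In the liver, no member was called. All 80 tested members had a log2 fold change above 0, with a median of 0.25, a level 18.6% higher, beside -0.02 for all 12813 tested genes, of which 0.0859% were called. At an unadjusted p under 0.05 edgeR gave 10 of the 80 members and 1072 of all tested genes, and neither DESeq2 nor limma-voom called a member. The medians were 0.23 for the 47 tested members of the large subunit and 0.26 for the 33 of the small subunit. In 32 of the 80 members every esculetin liver lay above every control liver, a pattern of 6.52% of all tested genes. The value rested in part on liver control replicate 1: without it the median was 0.11 and 73 of 80 members were above 0.

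The share of counts in ribosomal protein genes was 1.36%, 1.62% and 1.76% in the control livers and 1.78%, 1.84% and 1.81% in the esculetin livers. The lowest value was that of control replicate 1, and control replicate 3 lay next to the esculetin group. The means were 1.58% ± 0.202 and 1.81% ± 0.0304 (SD, n = 3), a difference of 0.231 percentage points that was 0.121 without control replicate 1. The small subunit had overlapping groups, at 0.678% ± 0.0969 and 0.782% ± 0.0220.

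The largest liver values were those of Rplp1, Rpl41, Rps29, Rpl27a and Rplp0. Rplp1 held 223, 322 and 381 CPM in control and 413, 388 and 434 CPM in esculetin livers, or 0.42 on the log2 scale (SE 0.17, edgeR adjusted p = 0.546). Rpl41, which encodes the shortest protein of the ribosome, held 168, 264 and 250.4 CPM and 315, 282 and 312 CPM (0.41, SE 0.16, edgeR adjusted p = 0.52). Rps29 held 37.8, 48.7 and 39.3 CPM and 57.7, 50.2 and 55.3 CPM (0.38, SE 0.13, edgeR adjusted p = 0.473), the smallest adjusted p of any member in the liver. In these 3 genes the groups did not overlap, and control replicate 1 was the lowest library. Without it the values were 0.23 for Rplp1, 0.24 for Rpl41, 0.31 for Rps29, 0.23 for Rpl27a and 0.21 for Rplp0.

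At the low end, Rpl7l1 was at 0.07 (SE 0.11), Rps4l and Rpl7a at 0.08 (SE 0.22 and 0.13), and Rps27l at 0.09 (SE 0.15), all with an edgeR adjusted p of at least 0.897. Without liver control replicate 1, Rps4l, Rps27l and Rpl7a were below 0. Rps2, with the largest fall in the cells, held 680.3, 875 and 1137 CPM in control and 1026, 1082 and 1147 CPM in esculetin livers (0.27, SE 0.17, edgeR adjusted p = 0.69), and was at 0.11 without control replicate 1. Rps27l made up 75.5% ± 2.18 of its pair in control and 72.1% ± 0.682 in esculetin livers, and Rpl22l1 10.6% ± 0.965 and 10.4% ± 0.326 of its own.

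The effect of esculetin on most members differed between the RAW264.7 cell experiment and the liver experiment. Dose, route, duration, diet and oxLDL differed along with the cells, so the difference is not assigned to cell type. In an edgeR model of all 12 libraries, the cell effect was called below the liver effect for 68 of 81 tested members, beside 13.7% of all 15709 tested genes. Without liver control replicate 1 it was 59 members, beside 11.6% of all genes. The median difference was -0.72 on the log2 scale, and -0.50 without that library. For Rps2 it was -1.38 (SE 0.21, edgeR adjusted p = 0.000197) and for Rpl3 -1.21 (SE 0.20, edgeR adjusted p = 0.000324). Rpl7l1 was the only member called in the other direction, at 0.40 (SE 0.14, edgeR adjusted p = 0.0449).

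Levels were compared between genes per kilobase of exonic length. In control cells the highest tested members were Rplp1 at 1907 ± 141 CPM per kb, Rps3a1 at 1332 ± 54.7 and Rpl4 at 1293 ± 27.5 (SD, n = 3). Rpl4 and Rpl8, which was next at 1291 ± 85.8, lay within 1 SD of Rps3a1. The lowest were Rpl3l at 0.145, Rpl21 at 1.55 and Rpl29 at 3.12 CPM per kb. In control livers Rplp1 (526 ± 136), Rps2 (488 ± 124) and Rpl10 (354 ± 78.3 CPM per kb) led, with overlapping spreads, and Rps10 (0.256), Rps28 (3.87) and Rpl22l1 (4.78) were lowest. The order depends on the length used: per kilobase of coding sequence Rpl41 was highest in both tables, at 4915 CPM per kb in the cells and 1649 in the liver. Rpl24 had at most 16 counts in any library, and 100% of its 100-base coding windows occur elsewhere in the genome.

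Ribosomal protein genes have many processed copies in the mouse genome, which bears on which reads could be assigned to a single locus. At least 50% of the coding windows occurred elsewhere in 53 of the 84 members and all of them in 23. The handling of such reads is not stated, so levels of these genes are uncertain. Among the 14 tested members with under 10% of windows elsewhere, 11 were called lower and 2 higher in the cells. Their median was -0.45, and they include Rpl4, Rpl8, Rpl13a, Rpl22, Rpl32 and Rps3. In the 22 tested members with all windows elsewhere, 21 were called lower and 0 higher, with a median of -0.44. Of all tested genes in the cells, 29.0% were called lower and 28.7% higher. The 322 annotated pseudogenes with a ribosomal protein name held 0.508% ± 0.0299 of the counts in control and 0.286% ± 0.00767 in esculetin cells.

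Between tables, which were scaled separately, control cells had more CPM than control liver for 70 of the 79 members tested in both, by 2.37 to 13.0 times, with a median of 3.97 over all 79. The other 9 members were lower in the cells. Rpl29 held 159 CPM in control liver and 11.8 CPM in control cells, a ratio of 0.0743, and Rpl26 held 186 and 24.0 CPM, a ratio of 0.129. Rpl21, Rps2, Rps18, Rpl35a and Rpl30 had ratios of 0.161, 0.236, 0.30, 0.366 and 0.530, and Rpl7l1 and Rps27l of 0.947 and 0.961. Rps4l was at 16.0, 25.3 and 32.9 CPM in control livers and at 0 in the cells. For Rpl29, Rpl26, Rpl21, Rps2, Rps18, Rpl35a and Rpl30, between 49.9% and 78.2% of the coding windows occur elsewhere in the genome. For Rpl7l1 and Rps27l it was 3.76% and 0%. Yet every member tested in both tables with all windows elsewhere was higher in the cells. The part of read assignment in these ratios was not tested, so they may not reflect RNA levels alone. Tissue, mouse strain and culture also differ together between the tables and cannot be told apart.

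**Figure D4:**
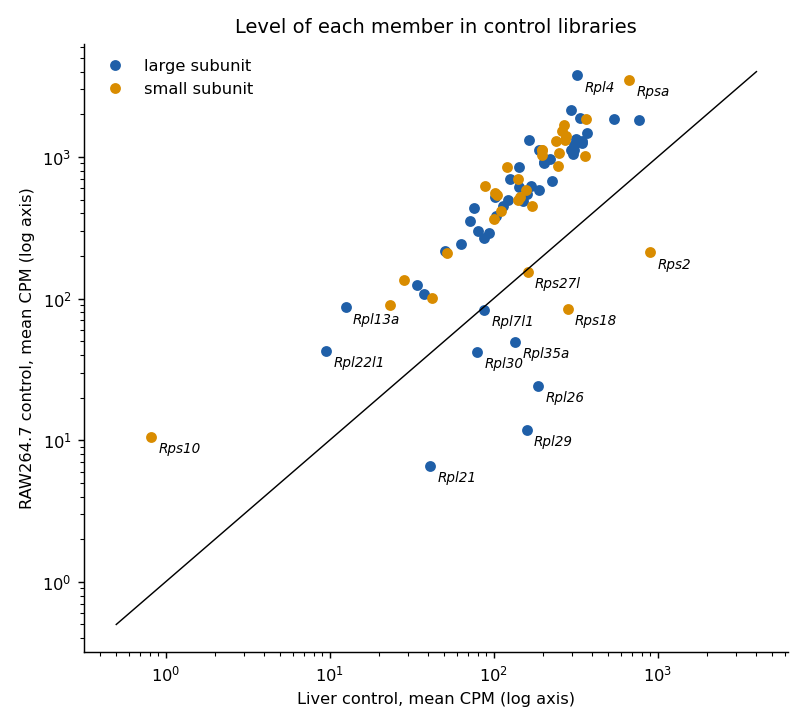
Mean CPM of each member tested in both tables in control RAW264.7 cells (y) against control liver (x), log axes, with the line of equal values. Most members form a band above the line, and 9 lie below it, Rpl29, Rpl26, Rpl21, Rps2, Rps18, Rpl35a and Rpl30 farthest.

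Genes that work with the ribosome were described by their counts. Among ribosome-linked genes outside the rule, Rack1 and Fau were called lower in the cells: Rack1, the small-subunit scaffold, from 2124, 2432 and 2358 CPM to 1640, 1665 and 1666 CPM (-0.48, SE 0.09, edgeR adjusted p = 0.00108), and Fau, whose product carries a ubiquitin-like part, by 0.45. Of 18 elongation factors and other TOP-mRNA genes, 14 were called lower and 2 higher, beside 29.0% and 28.7% of all tested genes, with a median of -0.35. They included Eif3l (-0.80), Eif4b (-0.79), Eef1g (-0.74) and Eif3f (-0.72). In the liver edgeR, DESeq2 and limma-voom called 0 of the 18, and the list had a median of 0.18. There, edgeR gave 1 of the 18 an unadjusted p under 0.05, beside 1072 of all 12813 tested genes.

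Ribosome biogenesis genes, which make and process rRNA, had 17 of 60 called lower and 14 higher in the cells, with a median of -0.15. These shares, 28.3% and 23.3%, were no larger than those of all tested genes, 29.0% and 28.7%. Utp14a fell by 1.07, Polr1c by 0.84 and Ddx47 by 0.76, whereas Nop58, a core protein of snoRNA particles, rose by 0.77. Heatr3, the importer of Rpl5, rose from 12.5, 12.0 and 11.3 CPM to 41.2, 46.0 and 62.3 CPM (2.06, SE 0.16, edgeR adjusted p = 1.37e-06). The other 4 chaperone genes, Grwd1, Aar2, Bccip and Tsr2, were between 0.00 and 0.30 and not called.

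Of 30 tested genes of mTORC1 and Myc control, 9 were called lower and 8 higher in the cells, 30% and 26.7%, near the 29.0% and 28.7% of all tested genes. Myc, the transcription factor that drives ribosome synthesis, rose from 3.99, 4.73 and 3.21 CPM to 9.07, 15.5 and 15.1 CPM (1.74, SE 0.23, edgeR adjusted p = 6.88e-05), while Mnt, its antagonist, fell by 0.68. Rraga, a Rag GTPase that brings mTORC1 to lysosomes, rose by 1.01, and Sesn1, an mTORC1 inhibitor of the amino acid pathway, fell by 0.89. Mtor was at 0.04 (edgeR adjusted p = 0.735) and Larp1, which holds TOP mRNAs, at -0.20 (edgeR adjusted p = 0.0634). In the liver edgeR and limma-voom called 0 of the 30. At an unadjusted p under 0.05 edgeR gave 1, beside 1072 of all 12813 tested genes. DESeq2 called Ddit4, an mTORC1 inhibitor induced by stress, which held 4.36, 7.20 and 10.7 CPM in control and 11.3, 18.4 and 21.3 CPM in esculetin livers (1.19, SE 0.30, edgeR adjusted p = 0.244). The replicate block also called it, and the fit without a filter called it and Myc. Myc was at 3.62, 1.87 and 1.63 CPM in control and 12.3, 1.36 and 1.75 CPM in esculetin livers, high in 1 library.

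Mitochondrial ribosomal proteins, which build the separate ribosome of that organelle, showed a wider spread. Of 77 tested in the cells, 42 were called lower and 5 higher, beside 29.0% and 28.7% of all tested genes, with a median of -0.33. Those with the smallest p were Mrpl38 (-1.15), Mrps2 (0.91), Mrps16 (-1.15) and Mrpl34 (-1.25). In the liver 0 of 77 were called (also 0 by DESeq2 and by limma-voom) and the median was 0.11. With edgeR, 3 had an unadjusted p under 0.05, beside 1072 of all 12813 tested genes.

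**Figure D5:**
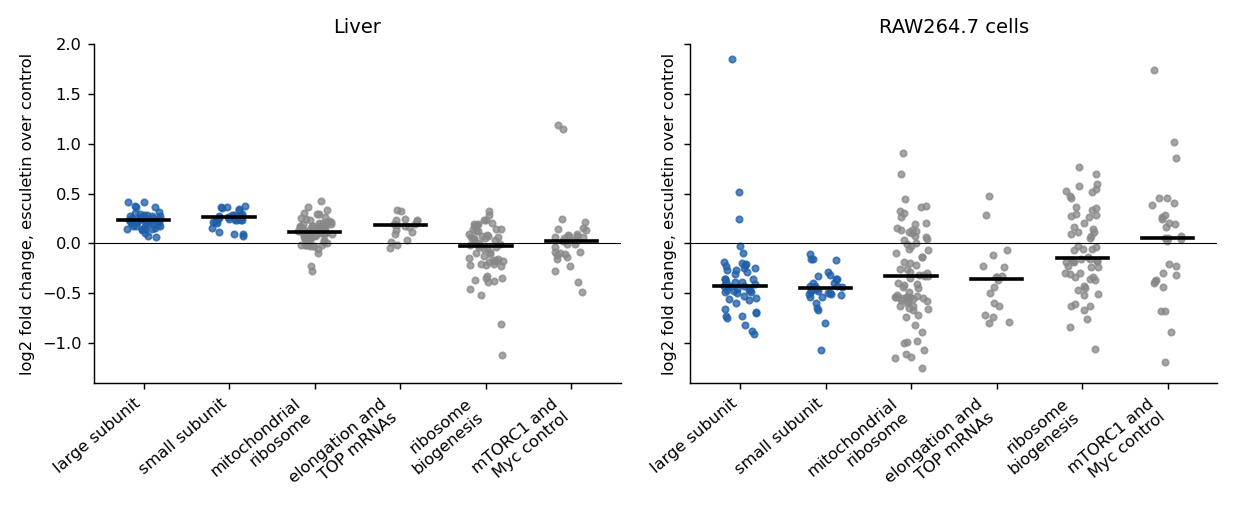
Log2 fold change of esculetin over control for each tested gene (points) and the median of each list (line), in the liver (left) and RAW264.7 cells (right). Members of both ribosomal subunits cluster near 0.25 in the liver and near -0.44 in the cells, while ribosome biogenesis and mTORC1 and Myc genes lie on both sides of 0.

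Other properties were set beside the cell result. Across the 80 tested members the log2 fold change in the cells had a Spearman rho of -0.45 with GC content. It was 0.19 with exonic length and 0.06 with coding length. These are descriptions over genes that share libraries. In all tested genes the median went from -0.15 in the fifth with the shortest exonic length to 0.10 in the fifth with the longest in the cells, and from 0.08 to -0.08 in the liver. With the trend over length removed, 58 members were called lower in the cells with a median of -0.37. With the trend over GC content removed, it was 68 with a median of -0.34. The shares and medians of all tested genes in these fits are not given here, so these values have no background. Summed macrophage markers were 2331 to 2496 CPM in control and 5679 to 8615 CPM in esculetin cells. Of the 8 markers, 6 were called in either direction, beside 29.0% of all tested genes called lower and 28.7% called higher. The direction of each call is not given here, so the sum does not speak for each marker. The part of these markers in the result was not tested. Members with a pyrimidine run at or near the annotated start had a median of -0.47 in the cells (29 tested) and the others of the table -0.43 (31 tested), which was given no test.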

How the data were processed

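RNA was measured in 12 libraries, 6 from liver and 6 from RAW264.7 cells. The deposited values are raw counts per gene locus, 1 table each. The authors prepared libraries with the NEBNext Ultra kit, sequenced paired ends, aligned with HISAT2 2.2.1 to GRCm39 and counted with featureCounts. RNA selection, strandedness, treatment of reads with several places and annotation release are not given in the sources used here. All 55357 identifiers per table were used, and 608 of them matched no gene of GENCODE vM39, the source of symbols and coordinates.

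Each table was fitted in edgeR 4.0.16 (R 4.3.3) after filterByExpr, with TMM scaling and a single treatment term, and called at a Benjamini-Hochberg adjusted p under 0.05. DESeq2 1.42.0 and limma 3.58.1 were alternatives. The SE of a log2 fold change is its size over the root of the F statistic. On simulated counts, 86.9% of 2-fold and 36.4% of 1.41-fold changes in the cells were recovered, and 88.8% and 22.7% in the liver. The simulation set a biological coefficient of variation of 0.12 for every gene and changed 200 genes. In the cell data 7667 of 13277 tested genes were called, so these recovery figures check the code and do not describe recovery in these data. Libraries of a group differed by more than sampling noise, and nothing says that cell libraries came from separate cultures, so p-values measure the spread between these samples.

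The members and lists were chosen with earlier results of these data known, and no list was tested as a set. Some genes are counted but not reported here by name. Named were both genes of 7 paralog pairs, genes of known roles, the 5 largest and 5 smallest fold changes with a mean of at least 10 CPM, the 3 highest and 3 lowest levels, up to 4 genes with the smallest p of each other list, and calls against the majority. Repeated windows are 100-base stretches of coding sequence found again in GRCm39. The lists of stellate and endothelial, cholangiocyte, Kupffer cell, other immune, red blood cell, adipose and pancreas markers had 0 called genes in the liver; in the cells 1 Kupffer cell and 1 stellate and endothelial gene were called.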

Additional observations from a re-analysis of the deposited data

Results flagged for a closer look

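Results whose effect differed between the cells and the liver, by the difference itself in an edgeR model of 12 libraries (adjusted p under 0.05), are listed here. Of the members, 68 had a cell effect below the liver effect. Values are the cell log2 fold change minus the liver log2 fold change. Dose, route and duration of esculetin also differed between the experiments.

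The largest named differences were -1.38 for Rps2, -1.21 for Rpl3, -1.19 for Rpl41, -1.13 for Rpl8 and Rpsa, -1.03 for Rpl36 and -1.0 for Rpl22l1. Next came Rpl11 at -0.95, Rps14 at -0.88, Rpl27a and Rplp1 at -0.85, Rplp2 at -0.83, Rpl7a at -0.81 and Rps27l at -0.80. Rps19 was at -0.79, Rps28 at -0.78, Rpl13a and Rps29 at -0.77, Rpl39 at -0.75 and Rps6 at -0.70. Smaller were Rps27 at -0.69, Rpl10, Rpl29 and Rplp0 at -0.68, Rps3 at -0.67, Rpl22 at -0.57 and Rpl17 at -0.55. Rpl7l1, at 0.40, was the only one above 0. Without liver control replicate 1, the calls of Rpl17 (-0.34, edgeR adjusted p = 0.0848) and Rpl29 (-0.48, edgeR adjusted p = 0.0656) were lost, the value of Rpl39 was -0.49, and 59 members were called below the liver effect.

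Groups of 3 libraries are too small for a test of a single library that lies apart, so none was made.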

How the results depend on the processing

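In 17 alternative fits per table (other scalings, filters and tools, trend removal, a replicate block and each library left out) no liver member was called. All 66 members called lower in the cells stayed below 0 in each fit in which they were tested, and 57 were called in every one. The replicate block gave 66 lower and 3 higher in the cells and 0 in the liver. The share of all tested genes that the block called in the cells is not given here. Deviations of same-numbered libraries correlated at 0.165, -0.0298 and 0.0796 in the cells and 0.140, -0.00529 and 0.103 in the liver. Libraries with different numbers were not compared in this way, so these values cannot show whether the numbers pair the samples.

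The study's stated criterion on limma-voom (unadjusted p under 0.05, fold change over 1.5) gave 15 members lower in the cells (10 large, 5 small) and 1 higher, a large-subunit gene. The share of all tested genes under this criterion is not given here, so these counts cannot be set against a background. The members with few repeated windows gave 11 lower and 2 higher, of 14 tested. This choice was made after seeing the data, as was the model without liver control replicate 1. Leaving out 1 library gave 58 to 67 members lower and 1 to 3 higher, the 1 without control replicate 3. The shares of all tested genes called in those fits are not given here, so these counts have no background. Without the 20 most abundant other genes in the denominator, the share of counts in the cells differed by -2.07 percentage points (-1.19 large, -0.88 small) in place of -1.83 (-1.06 and -0.78).

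Some genes never called changed sign when 1 library was left out. In the liver the values ran from -0.013 to 0.16 for Rpl7a, -0.063 to 0.20 for Rps27l and -0.15 to 0.32 for Rps4l, all lowest without control replicate 1, and from -0.16 (without esculetin replicate 3) to 0.51 for Rps10. Rps4l was also at -0.023 without esculetin replicate 2 and at -0.014 with the length trend removed. In the cells Rpl5 ran from -0.046 to 0.018, and was at 0.014 without control replicate 1 and highest without esculetin replicate 3. In the cells, 9 of the members called lower (Rpl22, Rpl23a, Rpl29, Rpl36a, Rplp0, Rplp1, Rps26, Rps27 and Rps29) and both Rpl23 and Rpl3l of those called higher lost the call in at least 1 alternative, 41 values in all. Of those not called, 8 (Rpl4, Rpl7, Rpl26, Rpl30, Rpl34, Rps4x, Rps20 and Rps24) were called in at least 1, 15 values in all. The count of all liver genes called, 11, was 339 without a filter, 123 with the block, 98 by DESeq2 and 0 by library size only. The causes were not tested.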
